A study of Mus musculus with 6 samples.

Results

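Fatty acid activation and oxidation were followed through 38 mouse genes, most of which encode enzymes and carriers taking a fatty acid from its free form to acetyl-CoA. The list also holds related genes, such as Ivd of leucine breakdown, the peroxisomal membrane protein Pex11a and the thioesterase Acot2. The 38 genes were chosen by name but with earlier results of these data known, so comparisons of them with all genes are descriptions. Each gene was read at the probe that carried its symbol alone and had the highest mean log2 intensity over the 6 samples. Such a probe was found for 32 of the 38 genes, out of 13840 genes with a probe of their own on the array. No single-symbol probe was found for Acadm, Echs1, Etfa, Etfb, Etfdh and Acsl1, so medium-chain dehydrogenation and electron transfer from the flavin enzymes were not analysed here. All 32 measured symbols matched the RefSeq symbol of their gene identifier. By compartment the measured genes comprised 15 of 20 assigned to mitochondria, 9 of 9 assigned to peroxisomes, 3 of 3 found in both organelles and 5 of 6 that activate fatty acids or help them enter the cell.

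The cells were RAW 264.7, a mouse macrophage-like line transformed by Abelson leukaemia virus. In the LPS group (n = 3) they received 1 µg/mL bacterial lipopolysaccharide, a Toll-like receptor ligand that sets off the inflammatory programme of macrophages. In the 15-HETE + LPS group (n = 3) they received 40 µM 15(S)-HETE, a hydroxylated product of arachidonic acid made by 15-lipoxygenase, and immediately afterwards the same dose of LPS. Whether the LPS group received the solvent of 15-HETE is not given in the sources used here. Both groups were therefore LPS-stimulated, and both were harvested at 24 h, each sample being the pooled content of 6 wells. Every sample came from this 1 line, and the question was which transcripts differ when 15-HETE is added to LPS.

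Long-chain fatty acids must be joined to coenzyme A before they can be burned, a step carried out by acyl-CoA synthetases and by transport proteins with synthetase activity. Mitochondria take up the acyl groups as carnitine esters and shorten them by repeated rounds of dehydrogenation, hydration, a further dehydrogenation and thiolysis. Peroxisomes run a similar spiral on very long, branched and bile acid side chains and pass the shortened products on to mitochondria. In liver, heart and macrophages many of these genes are transcribed under the fatty acid receptors of the PPAR family, which bind DNA together with a retinoid X receptor.

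The array read 33012 probes with quantile normalized intensities from 46.2 to 3047298 and a median of 837. Correlations of log2 intensity were 0.972 to 0.979 among the LPS samples, 0.955 to 0.962 among the 15-HETE + LPS samples and 0.943 to 0.962 between the groups. Of the measured genes, 29 of 32 lay above the array median, compared with 8314 of the 13840 genes, and Cpt1a, Decr1 and Ehhadh lay below it. All 8 measured macrophage markers lay above the median. Their summed intensity was 2752409 to 3657997 in the LPS samples and 3945427 to 4109823 in the 15-HETE + LPS samples. Most of this sum was 1 gene, Lyz2, at 1698875 to 2329593 and 2536178 to 2647746 respectively, which was not called (limma adjusted p = 0.464). The summed intensity of the 6 fibroblast markers was 22049 to 27746 and 13121 to 15431 respectively, that of 5 lymphocyte markers 3497 to 3753 and 3183 to 6497, and that of 7 epithelial and hepatocyte markers 6400 to 7056 and 4492 to 6036. Of these markers Mrc1, the mannose receptor of macrophages, rose (1.53, limma adjusted p = 0.0395). The study had listed Mrc1 from the same samples, so its direction here is not independent of that choice. Dcn, a matrix proteoglycan, and the keratin gene Krt8 differed by -1.30 and -1.05 (limma adjusted p = 0.0587 and 0.112), both without overlap. The part of these differences in the results was not tested, and in bulk RNA fewer cells of a type and less RNA per cell cannot be told apart. The labels do not say which arrays were hybridised together, so a batch of arrays and the treatment cannot be told apart.

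Genes of fatty acid oxidation lay mostly on the higher side after 15-HETE. Of the 32 measured genes, 27 had a log2 fold change above 0 (84.4%) against 51.6% of all genes, and their median was 0.32 (range -0.29 to 2.12) against 0.02 for all genes. The mitochondrial carnitine carrier Slc25a20 and the mitochondrial thioesterase Acot2 rose by limma at an adjusted p under 0.05, and none fell. The background of this rule was 0.509% of all probes called higher and 0.442% called lower, or 0.759% and 0.368% of genes read at their brightest probe. At an unadjusted p under 0.05, 7 of the 32 (21.9%) were higher and 0 lower, against 10.7% of all genes higher and 10.6% lower. When the variance prior of limma was allowed to follow the intensity (the intensity trend), 7 of 32 genes (21.9%) were called higher and 0 lower, against a background of 5.85% higher and 5.33% lower. These 7 were Slc25a20, Acot2, Cpt1a, Acaa2, Hadha, Hsd17b4 and Ech1.

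The separation of the groups was counted as well, as a description without a test. In 15 of the 32 genes (46.9%) the lowest 15-HETE + LPS sample lay above the highest LPS sample, against a background of 17.5% of all genes. Only Acsl3 among the 32 was separated in the other direction, against 17.7% of all genes. A high upward share was not particular to the 32. It was 50% in the macrophage markers, 42.9% in genes of peroxisome assembly and 62.5% in PPAR targets outside oxidation. It was 25% in other oxidation genes, 14.3% in epithelial and hepatocyte markers and 0% in fibroblast and lymphocyte markers. The share among genes of like intensity is not given here. With 3 samples against 3 the smallest 2-sided exact permutation p for a single gene is 0.1, so no single gene could pass 0.05 by that test. The labels call the samples biological replicates but name no separate cultures, and the p-values measure the spread between these samples.

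**Figure D1:**
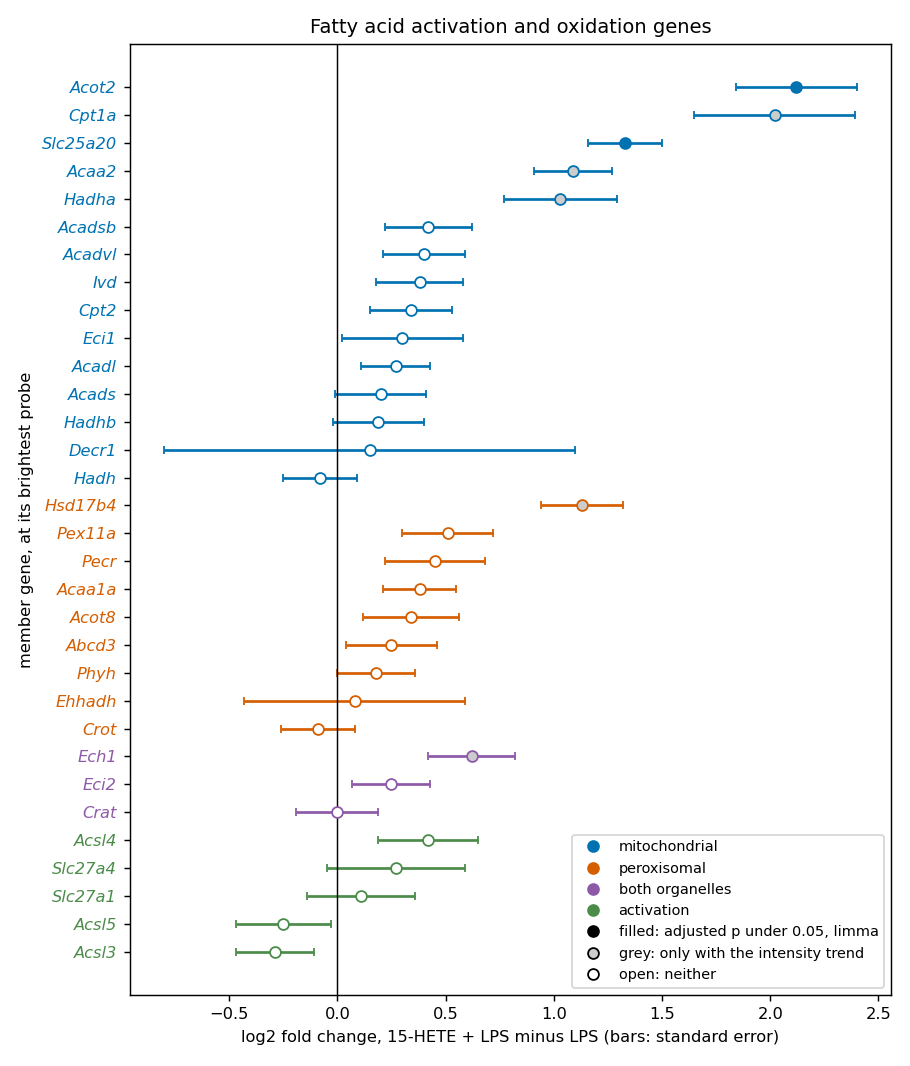
Log2 fold change of each of the 32 measured genes (x axis, 15-HETE + LPS minus LPS, log2 intensity; points are limma estimates at the brightest probe and bars their standard errors), grouped and coloured by compartment. Filled points passed limma at an adjusted p under 0.05, grey points passed only with the intensity trend, and open points passed neither. Acot2 at 2.12 and Slc25a20 at 1.33 are the filled points, and 27 of the 32 points lie to the right of 0.

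Among the steps of the list with more than 1 measured gene, entry of long-chain acyl groups into mitochondria had the largest median difference. The carnitine shuttle consists of Cpt1a, which forms acylcarnitine at the outer membrane and is the rate-controlling step of mitochondrial oxidation, of the inner membrane exchanger Slc25a20, and of Cpt2, which returns the acyl group to coenzyme A in the matrix. All 3 genes were separated upward between the groups, against 17.5% of all genes. Their median log2 fold change was 1.33. The related genes Cpt1b and Cpt1c, listed apart among the other oxidation genes, lay on the lower side. Cpt1c read 3635, 3848 and 4160 in the LPS samples and 2458, 2819 and 3189 in the treated samples, without overlap. Its log2 fold change was -0.47 ± 0.19 (SE, limma adjusted p = 0.245). Cpt1b, below the array median, differed by -0.59 ± 0.46 (SE) with overlap (limma adjusted p = 0.517).

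Slc25a20 had intensities of 5453, 5176 and 4982 in the LPS samples and 13976, 12655 and 12701 in the 15-HETE + LPS samples. The groups did not overlap and the spread within each was small beside the gap between them. The mean rose from 5204 ± 237 to 13110 ± 750 (SD, n = 3 each), a 2.52-fold increase with a log2 fold change of 1.33 ± 0.17 (SE) and a limma adjusted p of 0.0406. Leaving out any 1 sample kept the log2 fold change between 1.29 and 1.37, but the adjusted p was then 0.0677 to 0.192.

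The LPS samples gave Cpt1a intensities of 338, 504 and 204, and the 15-HETE + LPS samples gave 1176, 1652 and 1184. All 3 LPS values lay below the array median and all 3 treated values above it. The log2 fold change was 2.02 ± 0.37 (SE), 4.05-fold, with a limma adjusted p of 0.0655, and of 0.0232 with the intensity trend. With the intensity trend its adjusted p was 0.0319 to 0.0852 when 1 sample was left out, and it was called in 2 of the 6 such fits, being lost without LPS replicate 3 and without each of the 15-HETE + LPS replicates 1, 2 and 3. For Cpt2 the LPS intensities were 27568, 21389 and 24350 and the treated ones 32425, 31692 and 28484. The groups did not overlap, but the log2 fold change of 0.34 ± 0.19 (SE) did not pass (limma adjusted p = 0.369).

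The promoter of Slc25a20 is printed here for the repeat bound by PPAR heterodimers. Among the windows searched for the measured genes, it alone held that repeat within the tolerance used. The sequence is from RefSeq (GRCm38.p6, chr9:108661886-108662185, plus strand) and runs from 250 bases before to 50 bases after the start of the gene. The capitals mark the match, AGGTGAAAGGTCG, which begins at position 7, the start of the gene being position 1, and differs by 2 bases, the most allowed, from AGGTCA repeated with 1 base between.
Slc25a20: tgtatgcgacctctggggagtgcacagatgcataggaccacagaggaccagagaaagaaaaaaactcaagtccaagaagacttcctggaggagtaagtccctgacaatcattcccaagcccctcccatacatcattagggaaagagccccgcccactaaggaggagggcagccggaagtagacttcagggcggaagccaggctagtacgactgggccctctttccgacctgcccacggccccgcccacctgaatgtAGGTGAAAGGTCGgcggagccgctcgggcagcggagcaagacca
The windows searched were those of 28 measured genes, 31 in all, on both strands, with none for Acaa2, Hsd17b4, Crat and Decr1. Of the 31 windows 1 (3.23%) held the repeat. Over all promoters 1268 of 32851 windows (3.86%) held it, so the share among the oxidation genes was near that of all promoters. The single hexamer AGGTCA, which is contained in the exact repeat, was found in 3 of 31 windows (9.68%) against 16.3% of all windows. The median GC content was 60.7% in the 31 windows and 52.7% in all. A match describes the letters of the window and is no measurement of binding.

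Acot2, a mitochondrial thioesterase that splits long-chain acyl-CoA back into free acid and coenzyme A, had the largest fold change of the 32 genes. Its brighter probe read 2048, 1084 and 1828 in the LPS samples and 7083, 6767 and 7001 in the 15-HETE + LPS samples. The highest LPS value, 2048, was far below the lowest treated value, 6767. The mean rose from 1653 ± 505 to 6950 ± 164 (SD, n = 3 each), 4.36-fold, with a log2 fold change of 2.12 ± 0.28 (SE) and a limma adjusted p of 0.0431, which became 0.0709 to 0.185 when any 1 sample was left out. A dimmer probe of the same gene read 1358, 1533 and 1059 against 4733, 4289 and 5183, a log2 fold change of 1.86 ± 0.21 (SE) with a limma adjusted p of 0.0362. Both probes thus gave the same direction and passed the same test.

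Acot2 stands next to Acot1, Acot4 and Acot3 in a cluster on chromosome 12. Acot1, the cytosolic enzyme of near-identical protein sequence and no member of the 38, had intensities of 1865, 2327 and 2544 in the LPS samples and 7912, 8304 and 6332 in the treated samples. It rose by 1.75 ± 0.21 (SE) on the log2 scale (limma adjusted p = 0.0398). Whether the probes of the Acot1 and Acot2 transcripts bind both could not be tested, since probe sequences were not analysed here, and the values of the pair are uncertain in that respect. In an alignment of the promoter windows of the pair, 146 of 325 columns were identical (44.9%). The Acot2 window is shown for the member with the largest fold change (RefSeq, GRCm38.p6, chr12:83987611-83987910, plus strand), and it held no match to the repeat, so no base is in capitals.
Acot2: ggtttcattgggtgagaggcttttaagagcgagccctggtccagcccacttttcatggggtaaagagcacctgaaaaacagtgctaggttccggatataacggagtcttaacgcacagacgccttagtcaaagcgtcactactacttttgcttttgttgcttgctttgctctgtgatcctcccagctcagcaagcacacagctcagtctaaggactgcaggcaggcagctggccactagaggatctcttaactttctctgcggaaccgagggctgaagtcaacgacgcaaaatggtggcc

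**Figure D2:**
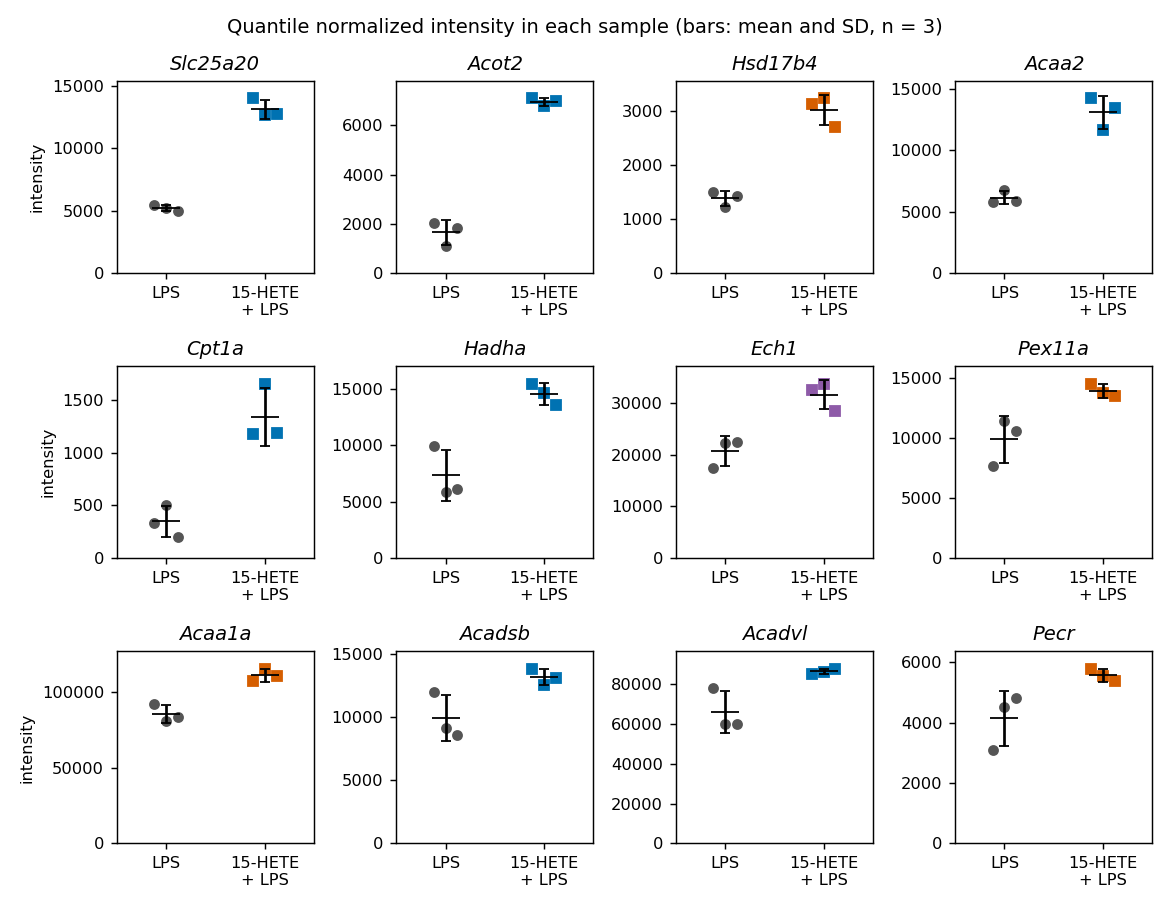
Quantile normalized intensity (y axis, starting at 0) in each sample for the 12 genes with the lowest limma p-value. Circles are the 3 LPS samples, squares the 3 15-HETE + LPS samples, and bars the mean and SD. In all 12 panels every square lies above every circle, with the widest relative gaps for Acot2 (1653 against 6950) and Cpt1a (348 against 1337).

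The acyl-CoA dehydrogenases, which take the initial hydrogens from the acyl chain, lay higher by small amounts, and none passed limma, adjusted or not, in either direction. The 5 measured of 6 ranged from 0.20 to 0.42 on the log2 scale with a median of 0.38. The groups were separated upward in 4 of the 5, against 17.5% of all genes. Acadvl, the membrane-bound enzyme for the longest chains, read 78242, 59956 and 60000 in the LPS samples and 85281, 86140 and 87709 after 15-HETE (log2 fold change 0.40 ± 0.19 SE, limma adjusted p = 0.310). Its LPS replicate 1 was the high LPS value and approached the treated samples.

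Acadsb, which handles short branched chains, read 12011, 9144 and 8641 against 13862, 12596 and 13113 (log2 fold change 0.42 ± 0.20 SE, limma adjusted p = 0.307). Acadl, the long-chain enzyme, was among the brightest genes of the list at 162110, 169441 and 163171 against 190258, 195698 and 211230, a difference of 0.27 ± 0.16 (SE) on the log2 scale (limma adjusted p = 0.416). Its 3 LPS values lay close together and all treated values were above them. Ivd, the isovaleryl-CoA dehydrogenase of leucine breakdown, was higher by 0.38 ± 0.20 (SE) without overlap and Acads, the short-chain enzyme, by 0.20 ± 0.21 (SE) with overlap.

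The enzymes of hydration, the further oxidation and thiolysis did not move together. Hadha carries the hydratase and hydroxyacyl dehydrogenase activities of the mitochondrial trifunctional protein, and its values were 9969, 5906 and 6149 in the LPS samples and 15450, 14651 and 13534 in the treated samples. All treated values lay above LPS replicate 1, which was the highest LPS value. The log2 fold change was 1.03 ± 0.26 (SE), 2.04-fold, with a limma adjusted p of 0.110, and of 0.0143 with the intensity trend. With the trend it was called in 2 of 6 fits that left out 1 sample and was lost without LPS replicate 2, LPS replicate 3, 15-HETE + LPS replicate 1 or 15-HETE + LPS replicate 2 (highest adjusted p 0.0631).

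Acaa2, the thiolase that releases acetyl-CoA in the matrix, read 5815, 6771 and 5842 in the LPS samples and 14211, 11633 and 13404 in the 15-HETE + LPS samples. The groups were well apart, with means of 6143 ± 544 and 13083 ± 1318 (SD, n = 3 each). Its log2 fold change was 1.09 ± 0.18 (SE), 2.13-fold, with a limma adjusted p of 0.0585 and, with the intensity trend, 0.00276. It was called in all 6 fits with the trend that left out 1 sample, as were Slc25a20 and Acot2. Hadh, the matrix dehydrogenase for medium and short hydroxyacyl chains, differed by -0.08 ± 0.17 (SE) on the log2 scale, with a 95% interval of -0.49 to 0.32.

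Hadhb encodes the thiolase subunit that assembles with Hadha in the trifunctional protein, and its probes were not alike. The brighter probe read 35743, 27368 and 24641 against 34010, 32274 and 32425, a log2 fold change of 0.19 ± 0.21 (SE) with overlapping groups (limma adjusted p = 0.654). The dimmer probe read 17689, 10020 and 10603 against 20608, 21054 and 21054, with no overlap. Its log2 fold change was 0.76 ± 0.26 (SE), and its limma adjusted p was 0.191, or 0.0467 with the intensity trend. Hadha and Hadhb are neighbours on chromosome 5 and are read in opposite directions from starts 272 bases apart. The stretch common to both promoter windows is printed because a single region precedes both genes (RefSeq, GRCm38.p6, chr5:30155003-30155230, plus strand, 228 bases, 57% GC). Neither the repeat nor its exact hexamer was found in it.
Hadha and Hadhb: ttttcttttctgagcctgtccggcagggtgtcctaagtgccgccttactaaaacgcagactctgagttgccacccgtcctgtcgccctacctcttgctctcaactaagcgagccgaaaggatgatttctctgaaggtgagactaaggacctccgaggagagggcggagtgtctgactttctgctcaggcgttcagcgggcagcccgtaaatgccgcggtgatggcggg

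The mitochondrial auxiliary enzymes for unsaturated chains showed little that the samples could resolve. Eci1, which shifts double bonds, was higher by 0.30 ± 0.28 (SE) on the log2 scale with overlapping groups. Decr1, the dienoyl-CoA reductase, read 278, 2787 and 346 in the LPS samples and 1150, 847 and 379 in the treated samples. LPS replicate 2 was the highest of all 6, and the log2 fold change of 0.15 ± 0.95 (SE) changed to between -0.45 and 1.21 when 1 sample was left out.

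Among the peroxisomal genes, the bifunctional enzyme Hsd17b4 had the largest difference. This enzyme hydrates and oxidises the chains of very long, branched and bile acid precursors. It read 1505, 1225 and 1427 in the LPS samples and 3134, 3236 and 2704 in the 15-HETE + LPS samples. The lowest treated value, 2704, lay well above the highest LPS value, 1505. The log2 fold change was 1.13 ± 0.19 (SE), 2.18-fold, with a limma adjusted p of 0.0571, and of 0.0176 with the intensity trend. With the trend it was called in 2 of 6 fits that left out 1 sample, being lost without LPS replicate 2, LPS replicate 3, 15-HETE + LPS replicate 1 or 15-HETE + LPS replicate 2 (adjusted p up to 0.0716). The study had picked this gene from the same samples, so its direction here is not independent of that choice.

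The other enzymes of the peroxisomal cycle differed less. Acaa1a, the peroxisomal thiolase, read 91837, 80871 and 83728 against 107011, 115380 and 110524, without overlap (log2 fold change 0.38 ± 0.17 SE, limma adjusted p = 0.280). Ehhadh, the L-bifunctional protein, lay below the array median and differed by 0.08 ± 0.51 (SE). Pex11a, a membrane protein that elongates and divides peroxisomes, read 7688, 11360 and 10533 against 14498, 13691 and 13472. Its groups did not overlap (log2 fold change 0.51 ± 0.21 SE, limma adjusted p = 0.256). Pecr, a peroxisomal enoyl-CoA reductase, read 3104, 4518 and 4818 against 5786, 5541 and 5368, also without overlap (log2 fold change 0.45 ± 0.23 SE, limma adjusted p = 0.333). In both Pex11a and Pecr, LPS replicate 1 was the lowest of all 6 samples.

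The remaining peroxisomal members had overlapping groups. Abcd3, the transporter that admits long and branched acyl-CoA, was higher by 0.25 ± 0.21 (SE) on the log2 scale, and Phyh, which starts the α-oxidation of phytanic acid, by 0.18 ± 0.18 (SE). Of the enzymes that release shortened chains, the thioesterase Acot8 differed by 0.34 ± 0.22 (SE) and the carnitine octanoyltransferase Crot by -0.09 ± 0.17 (SE), with a 95% interval for Crot of -0.49 to 0.32. In total, 8 of the 9 peroxisomal genes lay above 0, against 51.6% of all genes. The groups were separated upward in 4 of the 9, against 17.5% of all genes. None passed limma, and at an unadjusted p under 0.05, 1 was higher and 0 lower. The 1 of 9 was about the share of all genes, of which 10.7% were higher and 10.6% lower. Hsd17b4 alone passed with the intensity trend, against 5.85% of all genes called higher.

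Of the 3 enzymes assigned to both organelles, Ech1 was the one that differed most. Ech1, a dienoyl-CoA isomerase, read 17349, 22135 and 22486 in the LPS samples and 32508, 33677 and 28450 in the treated samples. The groups did not overlap, and the log2 fold change was 0.62 ± 0.20 (SE), 1.53-fold, with a limma adjusted p of 0.164 and, with the intensity trend, 0.0256. It was called in 2 of 6 trend fits that left out 1 sample, and not without LPS replicate 2 or any of the 15-HETE + LPS replicates 1, 2 and 3 (adjusted p up to 0.113). Eci2, an enoyl-CoA isomerase, differed by 0.25 ± 0.18 (SE) and Crat, the carnitine acetyltransferase, by 0.00 ± 0.19 (SE) with a 95% interval of -0.46 to 0.45.

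The genes of activation stood on both sides of 0, and none passed limma, with or without the intensity trend or at an unadjusted p under 0.05. Their median log2 fold change was 0.11 over 5 measured genes, with 3 above 0 and 2 below. Acsl3, a synthetase of the endoplasmic reticulum and lipid droplet surface, read 70505, 59853 and 56114 in the LPS samples and 48581, 51520 and 52198 after 15-HETE. Every treated value was below every LPS value, but the log2 fold change of -0.29 ± 0.18 (SE) had a limma adjusted p of 0.429. Acsl5, a synthetase of mitochondrial and reticulum membranes, read 212229, 136862 and 155409 against 142431, 135773 and 137388 (log2 fold change -0.25, limma adjusted p = 0.565). Here too the wide LPS range came from LPS replicate 1.

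Acsl4, which prefers arachidonic acid, had probes on opposite sides of 0. Its brighter probe differed by 0.42 ± 0.23 (SE, limma adjusted p = 0.368) and its dimmer probe by -0.30 ± 0.18 (SE, limma adjusted p = 0.414). The transport proteins Slc27a1 and Slc27a4, which take up fatty acids and activate them, differed by 0.11 ± 0.25 and 0.27 ± 0.32 (SE). For Slc27a1 the LPS samples read 164684, 99876 and 99783 and the treated samples 128073, 131221 and 123722, which lay between the LPS extremes.

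The mitochondrial and peroxisomal steps were then set side by side. The median log2 fold change was 0.38 over 15 mitochondrial genes (range -0.08 to 2.12) and 0.34 over 9 peroxisomal genes (range -0.09 to 1.13), a difference of 0.047. Between replicates of a group, the median log2 intensity of the mitochondrial genes minus that of the peroxisomal genes had an SD of 0.208. That SD is of intensities and not of fold changes, so it does not measure the spread of this difference. The difference of 0.047 moved with single samples. It was -0.024 without LPS replicate 3, -0.006 without 15-HETE + LPS replicate 2, 0.180 without LPS replicate 1 and 0.111 without 15-HETE + LPS replicate 1. By limma 2 of 15 mitochondrial and 0 of 9 peroxisomal genes were called higher, against 0.759% of all genes. With the intensity trend 5 of 15 (33.3%) and 1 of 9 (11.1%) were called higher, against 5.85% of all genes. The groups were separated upward in 10 of 15 mitochondrial genes (66.7%) and in 4 of 9 peroxisomal genes (44.4%), against 17.5% of all genes.

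The mean over each set, which gives weight to its largest members, differed more. Relative to the LPS mean, the mean log2 intensity of the mitochondrial set was 0.044, 0.104 and -0.148 in the LPS samples and 0.734, 0.707 and 0.592 in the 15-HETE + LPS samples. The peroxisomal set was at 0.018, -0.029 and 0.011 against 0.445, 0.373 and 0.260. In both sets every treated sample lay above every LPS sample. The mean difference was 0.678 for the mitochondrial and 0.359 for the peroxisomal genes. Activation genes averaged 0.411, -0.214 and -0.198 in the LPS samples and 0.110, 0.001 and 0.049 after 15-HETE, so that the treated samples lay inside the LPS range.

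**Figure D3:**
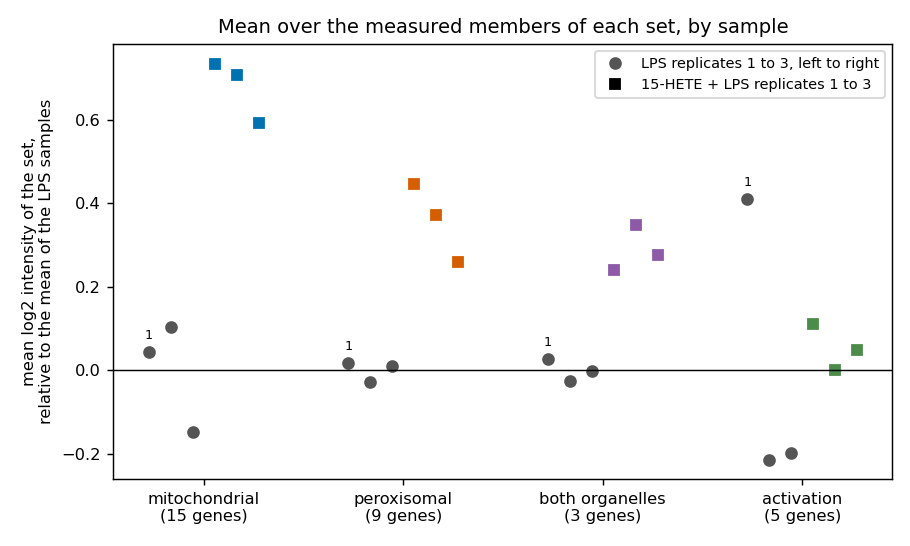
Mean log2 intensity over the measured genes of each set in every sample (y axis, relative to the mean of the 3 LPS samples; circles LPS, squares 15-HETE + LPS, with LPS replicate 1 marked 1). Mitochondrial squares lie at 0.592 to 0.734 and peroxisomal squares at 0.260 to 0.445, all above their circles, while LPS replicate 1 lies at 0.411, above all squares, for the activation genes.

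**Figure D4:**
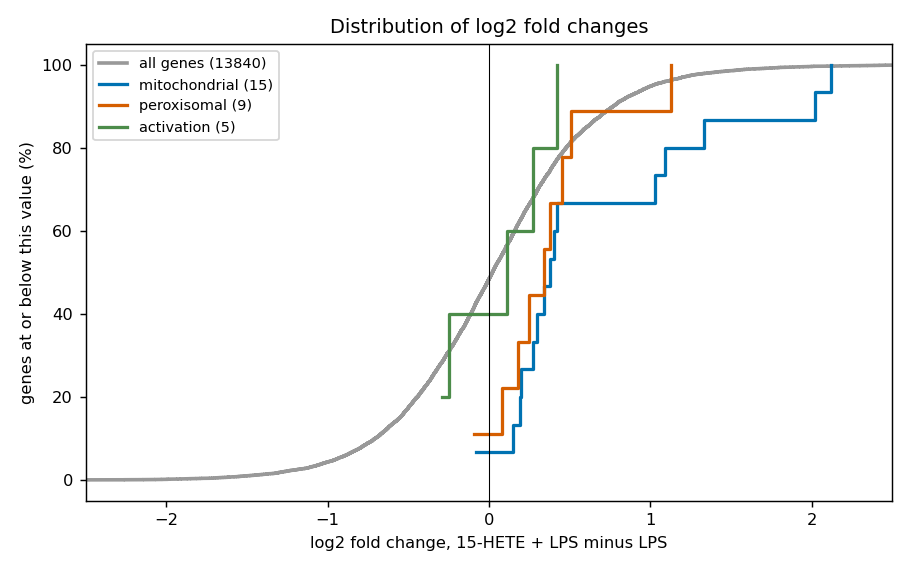
Cumulative share of genes (y axis, percent) at or below each log2 fold change (x axis, 15-HETE + LPS minus LPS) for all 13840 genes and for the mitochondrial, peroxisomal and activation sets. The mitochondrial and peroxisomal curves run to the right of the grey curve near 0 and part from each other above about 0.5, where 5 of the 15 mitochondrial genes and 2 of the 9 peroxisomal genes lie.

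LPS replicate 1 differed from the other LPS samples in many of these genes. It lay farthest from the LPS mean in 23 of the 32 and outside the range of the other 5 samples in 16. The shares of all genes were not counted, so these counts cannot be called particular to the 32. Over the whole array LPS replicate 1 correlated at 0.972 and 0.974 with LPS replicates 2 and 3, which correlated at 0.979 with each other. Without LPS replicate 1, 23 genes were separated upward and 2 downward (background 25.5% of all genes upward, not counted downward). With the intensity trend 18 were then called higher and 0 lower (background 12.6% and 9.17%), and the mitochondrial median was 0.524. Limma with its default prior then called 0 probes on the whole array, and 16 of the 32 genes were higher and 0 lower at an unadjusted p under 0.05 (background 13.3% and 10.7%).

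Other genes of the pathway were listed apart from the 38 and lay on both sides of 0. Of 63 such genes 52 were measured, 29 above and 23 below 0, with a median log2 fold change of 0.08. Limma called Acsf2 and Acot1 higher and none lower, against 0.759% and 0.368% of all genes. With the intensity trend 9 were called higher (17.3%) and 3 lower, against 5.85% and 5.33% of all genes. The 3 lower calls were thus near the share of all genes. Among 23 mitochondrial genes of that list the trend called 2 higher (8.7%) and 3 lower. Among 15 peroxisomal genes it called 3 higher (20%) and 0 lower. The peroxisomal calls were Hacl1, the lyase of α-oxidation (0.54 ± 0.17 SE), and the coenzyme A diphosphatases Nudt7 (0.74 ± 0.20 SE) and Nudt19 (0.76 ± 0.21 SE). The lower mitochondrial calls were the propionyl-CoA and methylcrotonyl-CoA carboxylase subunits Pccb (-0.65) and Mccc1 (-0.49) and the ketone body dehydrogenase Bdh1 (-0.84), none of which passed limma with its default prior. In the 6 trend fits that left out 1 sample, Nudt19 and Pccb were called in 4, Bdh1 in all 6, and Hacl1, Nudt7 and Mccc1 in 1 each (adjusted p up to 0.127). The sterol carrier protein Scp2 differed by 0.12 at its brighter probe and by 1.19 ± 0.24 (SE) at its dimmer one (adjusted p 0.0773 by limma and 0.00773 with the trend). Malonyl-CoA decarboxylase (Mlycd) and the acyl-CoA binding protein Acbd3 passed with the trend at 0.47 and 1.05, and were called in 1 and 2 of the 6 fits that left out 1 sample. Echdc3, a hydratase-like protein, and the fatty acid carrier Fabp4 were higher by 1.12 and 0.93 (limma adjusted p = 0.0704 and 0.0869) and were called with the trend in 6 and 1 of those 6 fits. The study had also listed Echdc3 from the same samples.

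Acsf2, an acyl-CoA synthetase for medium chains, read 397, 235 and 208 in the LPS samples and 1989, 3189 and 2553 in the 15-HETE + LPS samples. This was the largest difference of the list, at 3.23 ± 0.32 (SE) on the log2 scale (limma adjusted p = 0.0327), with all LPS values below the array median. The other probe for the gene differed by -0.51 (limma adjusted p = 0.448), so the probes disagreed in sign.

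The PPAR receptors, their partners and their targets outside oxidation were listed too. Of 8 PPAR receptors and partners 7 were measured, 3 of them above the array median. Their median log2 fold change was -0.21, with 0 calls by limma. At an unadjusted p under 0.05, 1 was higher and 1 lower, against 10.7% and 10.6% of all genes. Esrra, an orphan receptor for oxidative genes, was called with the intensity trend at 0.54 ± 0.17 (SE). It was called in 2 of 6 trend fits when 1 sample was left out (adjusted p up to 0.0955). Ppara, Pparg and Ppargc1a, at 0.49 ± 0.28, -1.14 ± 0.50 and -0.50 ± 0.19 (SE), were not called with the trend. All of these last genes lay below the array median. Of 10 PPAR target genes outside oxidation 8 were measured, with 1 called higher and 1 lower by limma (0.759% and 0.368% of all genes). Plin2, the lipid droplet coat protein, read 227730, 162110 and 152104 against 740622, 658705 and 710178 and rose by 1.98 ± 0.22 (SE) on the log2 scale (limma adjusted p = 0.0344). The study had named it, as Adfp, among raised transcripts of the same samples. Pdk4, the kinase that shuts pyruvate dehydrogenase while fat is burned, had a mean log2 intensity below the array median. It read 1033, 1116 and 1013 against 312, 227 and 266 and fell by 1.99 on the log2 scale (SE 0.19, limma adjusted p = 0.0327). Plin2 and Pdk4, both known PPAR targets, thus went in opposite directions. Txnip, Cidec and Pnpla2 were higher by 1.72, 0.84 and 0.64 (limma adjusted p = 0.0545, 0.0793 and 0.113). The limma calls of Acsf2, Acot1, Plin2 and Pdk4 did not hold when any 1 sample was left out, since no probe of the array then passed. With the trend the first 3 were called in all 6 such fits and Pdk4 in 4 (adjusted p up to 0.0588).

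**Figure D5:**
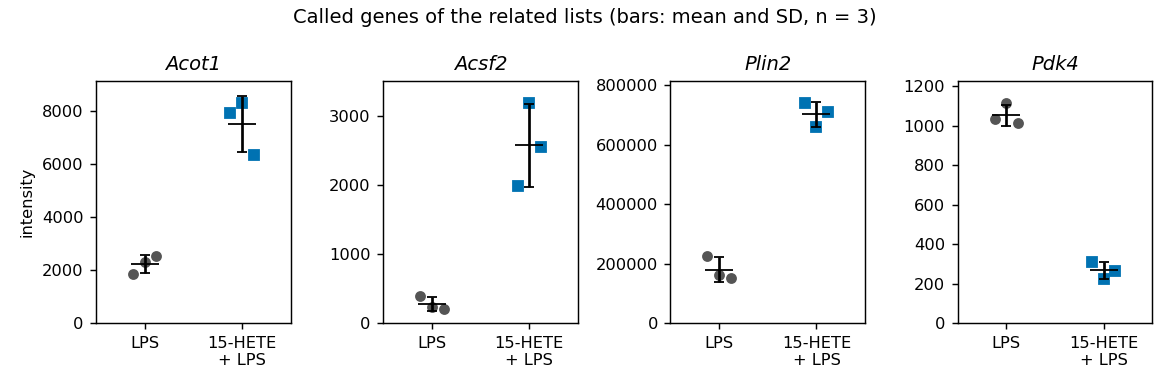
Quantile normalized intensity (y axis, starting at 0) of the 4 genes outside the 38 that limma called in the related lists. Circles are the 3 LPS samples, squares the 3 15-HETE + LPS samples, and bars the mean and SD. Acot1, Acsf2 and Plin2 lie higher and Pdk4 lower after 15-HETE, with no overlap in any of the 4 panels.

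Genes that build or maintain peroxisomes had a median log2 fold change of 0.09. Of 18 listed, 14 were measured, 9 above and 5 below 0, with 0 calls by limma. At an unadjusted p under 0.05, 1 of the 14 (7.14%) was higher and 0 lower, which was not above the 10.7% of all genes. The groups were separated upward in 6 of the 14 (42.9%) and downward in 2, against 17.5% and 17.7% of all genes. That upward share was near the 44.4% of the measured peroxisomal oxidation genes. Catalase (Cat), the main peroxide-degrading enzyme of the organelle, was the 1 call with the intensity trend, at 0.71 ± 0.23 (SE), and was called in 1 of the 6 trend fits that left out 1 sample (adjusted p up to 0.116). The import factors Pex3 and Pex13 and the membrane protein Pxmp4 differed by 0.38, 0.43 and 0.41 (limma adjusted p = 0.275, 0.285 and 0.289). A dimmer probe of Pxmp4 differed by 0.84 ± 0.18 (SE), with a limma adjusted p of 0.0844, and of 0.0103 with the intensity trend, and it was called in all 6 trend fits that left out 1 sample.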

How the data were processed

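RNA of 6 samples of RAW 264.7 cells was labelled with digoxigenin and hybridised to ABI mouse genome survey arrays. The values are intensities deposited by the authors, read by chemiluminescence and quantile normalized by them; sorted values differed by at most 0.224% between samples. The table held no detection flags or background, so dim genes carry no detection call, and the number of arrays limits the precision. Of 33012 probes, 14411 had 1 gene symbol, 247 several and 18354 none, per the platform annotation. Each gene was read at its probe of highest mean log2 intensity. Log2 intensities were fitted by gene with limma 3.58.1 in R 4.3.3 (eBayes at its default prior, 2-sided), and p-values were adjusted over all probes by Benjamini-Hochberg at 0.05. The fit was tested on simulated data. The study's methods tested, with unequal variances, the probes left by filters on signal-to-noise, flags and fold change, at a stricter threshold. The same kind of test ("the methods' test") was run here as an alternative without those filters, over all probes and at 0.05, so its counts are not those of the study's procedure. The other alternatives were an intensity trend, a robust prior, a replicate block, cyclic loess, an offset of 50, exclusion of dim probes, the mean of all probes of a gene and omission of each sample.

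The genes and lists were chosen with earlier results of these data known. Values in every sample are given for genes called with limma or with the intensity trend and for the 12 with the lowest limma p, with others added where the spread is described. Of the related lists, each gene called by limma and the 4 with the lowest p are named, and those called with the trend in lists of oxidation genes and PPAR genes. Pmp22 was taken off the list of peroxisome assembly because its symbol denotes a myelin protein. Promoter windows are from RefSeq (GRCm38.p6), and none from chromosome 18 is printed.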

Additional observations from a re-analysis of the deposited data

How the results depend on the processing

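No log2 fold change of the 12 genes with the lowest p changed sign under any alternative. For most alternatives this was fixed beforehand and shows no stability. The groups of these genes do not overlap, and several fits share the same fold changes. Of 251 values of these genes under the alternatives, 200 kept their side of the threshold, 34 passed it anew and 17 no longer passed it. Of the 32 genes, 2 were called higher and 0 lower, and of all probes 168 higher and 146 lower. These counts were 7 genes and 1279 and 1638 probes with the intensity trend, 1 gene and 100 and 62 probes with the robust prior, 4 genes and 269 and 256 probes with an offset of 50, and 6 genes and 1207 and 1589 probes without dim probes. Averaging the probes of a gene gave 92 lower. The methods' test called 0 genes and 0 and 0 probes (at an unadjusted p under 0.05, 9 of the 32 higher and 0 lower, against 9.33% and 9.1% of all genes). Leaving out 1 sample, with or without the trend, gave 0 to 18 genes higher, 0 to 2595 probes higher, 0 to 2540 lower and a mitochondrial median of 0.335 to 0.524. The replicate block called 0 genes and 0 and 0 probes (at an unadjusted p under 0.05, 6 higher and 0 lower, against 8.49% and 8.38%), and with the trend 7 genes and 1058 and 1266 probes. Replicate numbers did not pair the samples, as deviations of same-numbered samples correlated at -0.024 to 0.0237 and not every sample correlated best with its own number. The cause of these changes was not tested. Cpt1a, Decr1 and Ehhadh, with mean log2 intensities below the array median, are the dimmest of the 32, and the table held no background against which to set them.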
